A study of Mus musculus with 16 samples.

Results

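The comparison described here is the difference between the sexes in how liver transcripts responded to tamoxifen: the change with tamoxifen in males minus the change with tamoxifen in females, on the log2 scale. All 16 arrays of the series entered it, and 2122 of 13819 genes tested passed an adjusted p of 0.05 in either direction, a share of 15.4% (limma with Benjamini-Hochberg adjustment, used for every adjusted p below). The mice were of the wild-derived inbred strain WSB/EiJ and 18 weeks old, and each array held liver RNA of 1 mouse. The 4 groups of 4 mice were females on NIH-31 diet, females on that diet with 420 ppm tamoxifen for 12 weeks, males on NIH-31 diet, and males on the tamoxifen diet. Mice were placed on a diet at random, per the labels' protocols. Nothing in the labels describes a genetic alteration, castration or hormone replacement in any group. A positive difference below means that the male response exceeded the female response, and a level is the array signal of a gene's probe divided by the 75th percentile of its array.

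Mouse liver differs between the sexes in the expression of many enzymes, transporters and secreted proteins. Growth hormone, released in pulses in males and more steadily in females, sets much of this pattern through the transcription factor STAT5B, with BCL6 acting as a repressor that is higher in males and CUX2 as a repressor that is higher in females. Tamoxifen binds oestrogen receptors and acts as an agonist or an antagonist depending on the tissue. Sex differences of this kind include cytochromes P450 of the Cyp2b, Cyp3a and Cyp4a families and sulfotransferases.

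Promoters of 4 genes are shown, with matches to the STAT5-type palindrome TTCNNNGAA in capitals. All 4 are shown because they hold a match, as did 15 of the 94 named genes whose listed promoters were counted. That count left out promoters on a single chromosome, which the shares of promoters given below do not. The listed promoters of Cyp3a44 and Cyp2b13, for example, held none. A1bg and Sult3a1 belong to the genes that were high in control females and rose in treated males, Prlr is the prolactin receptor, and Bcl6 is the repressor named above. Each run is the 250 bases before the annotated start, 5′ to 3′, from RefSeq on GRCm38.p6: A1bg at chr15:60921271-60921520 on the minus strand, Sult3a1 at chr10:33857472-33857721 on the plus strand, Prlr at chr15:10223656-10223905 on the plus strand and Bcl6 at chr16:23981284-23981533 on the minus strand. For Prlr it is 1 of 3 listed promoters, the only one of the 3 with a match. For Bcl6 it is 1 of 2, and the promoter not shown also holds a match, TTCTCAGAA, which starts 118 bases before its annotated start.
A1bg: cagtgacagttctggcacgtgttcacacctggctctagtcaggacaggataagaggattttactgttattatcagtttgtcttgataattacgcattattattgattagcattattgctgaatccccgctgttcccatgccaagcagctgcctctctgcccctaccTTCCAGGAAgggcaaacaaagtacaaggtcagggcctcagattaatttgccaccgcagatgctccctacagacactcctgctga
Sult3a1: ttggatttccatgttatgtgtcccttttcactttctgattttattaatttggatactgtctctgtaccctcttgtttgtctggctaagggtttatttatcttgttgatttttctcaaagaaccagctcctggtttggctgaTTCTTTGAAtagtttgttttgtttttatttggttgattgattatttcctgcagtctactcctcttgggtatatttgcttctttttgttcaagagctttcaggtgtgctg
Prlr: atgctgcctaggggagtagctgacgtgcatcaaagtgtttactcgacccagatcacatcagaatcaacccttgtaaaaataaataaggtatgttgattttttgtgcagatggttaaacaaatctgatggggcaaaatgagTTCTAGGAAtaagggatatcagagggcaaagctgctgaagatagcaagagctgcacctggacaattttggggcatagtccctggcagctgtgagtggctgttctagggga
Bcl6: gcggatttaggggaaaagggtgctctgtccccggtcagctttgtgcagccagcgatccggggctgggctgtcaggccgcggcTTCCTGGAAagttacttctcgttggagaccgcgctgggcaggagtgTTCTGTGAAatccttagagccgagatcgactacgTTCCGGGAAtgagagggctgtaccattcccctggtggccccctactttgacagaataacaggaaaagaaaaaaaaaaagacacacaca
The A1bg, Sult3a1 and Prlr runs each held 1 match, and the Bcl6 run held 3, which start 168, 122 and 88 bases before the annotated start. The motif reads the same on both strands. Over promoters that span 250 bases before to 50 bases after a start, it was in 8.3% of 32851 listed promoters and 7.28% of 13942 promoters of genes tested. It was in 8.04% of 1119 promoters of genes with a higher male response and in 6.58% of 1019 with a lower male response. Among the sex-biased genes described below it was in 6 of 39 promoters of female-biased genes (15.4%) and in 4 of 36 of male-biased genes (11.1%). The oestrogen response element, searched as its full palindrome, was in 0.07% of all listed promoters, in 1 promoter of a gene tested and in none of a gene that passed. A match is a string of letters and was not tested as a binding site, and the absence of a match says only that these letters are not in the window.

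Of the 2122 genes, 1091 had the higher response in males (7.89% of genes tested) and 1031 the lower (7.46%), and 873 differed at least 2-fold, 505 higher and 368 lower. With each array scaled to its median in place of its 75th percentile, 806 were higher and 389 lower. Over all genes tested the median difference was -0.04, the median male response -0.07 and the median female response 0.0004. Most of the 2122 passed the test in 1 sex alone, although passing in 1 sex alone is not what put them here: the difference itself was tested. The sizes of the classes, given here for the 75th percentile scaling, depend on the scaling. The largest class, 551 genes, fell in males and did not pass in females, with a median male response of -0.67 and a median female response of 0.14. With median scaling all genes with a lower male response together numbered 389, so this class was smaller there. A further 500 rose in males and did not pass in females (median difference 1.03), 337 fell in females and did not pass in males (0.74), and 229 rose in females and did not pass in males (-0.75).

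In a further class the responses ran in opposite directions: 145 genes rose in males and fell in females, with medians of 0.82 and -0.71, and 100 fell in males and rose in females, with medians of -0.63 and 0.62. Genes that moved the same way by different amounts were fewer: 45 fell more in males, 43 rose more in males, 22 fell more in females and 19 rose more in females. The remaining 131 passed in neither sex alone. The male response was the larger in absolute size for 1310 of the 2122 genes (61.7%), against 56.9% of all genes tested. By comparison, 1061 genes passed in both sexes in the same direction and did not pass for the difference.

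**Figure D1:**
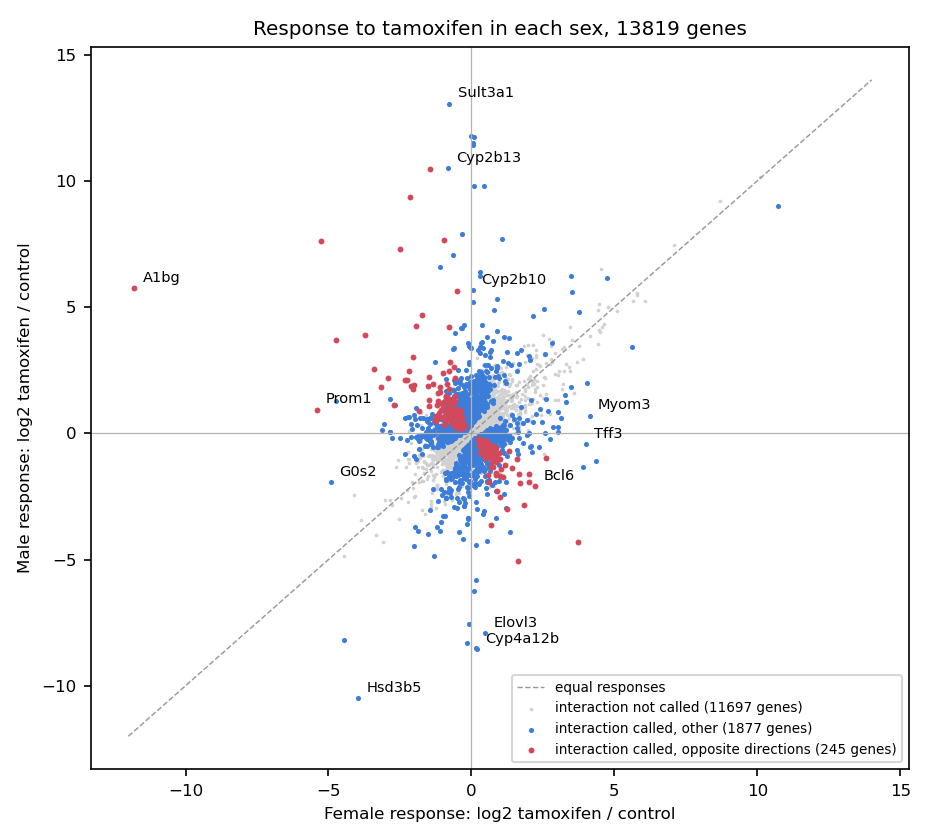
Male response against female response, both as log2 tamoxifen over control, for the 13819 genes tested, 1 point per gene, with 4 mice per group; the dashed line marks equal responses. Blue points passed for the difference, red points also passed in both sexes in opposite directions, and grey points did not pass. The blue points spread along both axes, with Elovl3 at -7.92 in males and 0.47 in females. Prom1, a red point, lies at 0.93 in males and -5.40 in females. The male responses of A1bg and Sult3a1 are plotted as fitted, although male controls were below background on 4 and 3 arrays.

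The same contrast is the sex difference on the tamoxifen diet minus that on the control diet. On the control diet 4524 genes differed between males and females (32.7%), 2539 higher in males (18.4%) and 1985 lower (14.4%), or 1846 and 2312 with quantile normalization. On the tamoxifen diet 237 did (1.72%), 140 higher (1.01%) and 97 lower (0.702%), or 99 and 103 with quantile normalization. That last count fell to 64 without female tamoxifen 3 and to between 85 and 133 without any other treated mouse, and array weights raised it to 659. Among the 2122 genes the median absolute sex difference was 0.72 on the control diet and 0.21 on the tamoxifen diet, and it was smaller on tamoxifen for 1872 of them (88.2%, against 68.4% of all genes tested). The difference between the sexes passed on the control diet alone for 1804 of the 2122, on the tamoxifen diet alone for 56, on both diets in the same direction for 10 and on neither for 198.

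The remaining 54 genes reversed their sex difference: they passed on both diets in opposite directions. A1bg, a plasma glycoprotein, went from a male minus female difference of -14.21 on the control diet to 3.35 on the tamoxifen diet, although its male control signals were below background. Bcl6 went the other way, from 2.46 to -1.84, as did Myom3, a sarcomere M-band protein, from 2.00 to -1.43. Enho, which encodes the secreted peptide adropin (1.19 to -1.17), Ephx1, microsomal epoxide hydrolase (1.32 to -0.93), the chemokine Cxcl10 (-1.04 to 0.94) and liver pyruvate kinase Pklr (-1.05 to 0.88) also reversed. Csad, an enzyme of taurine synthesis, passed on the tamoxifen diet alone, at -2.30 (adjusted p = 0.0021).

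**Figure D2:**
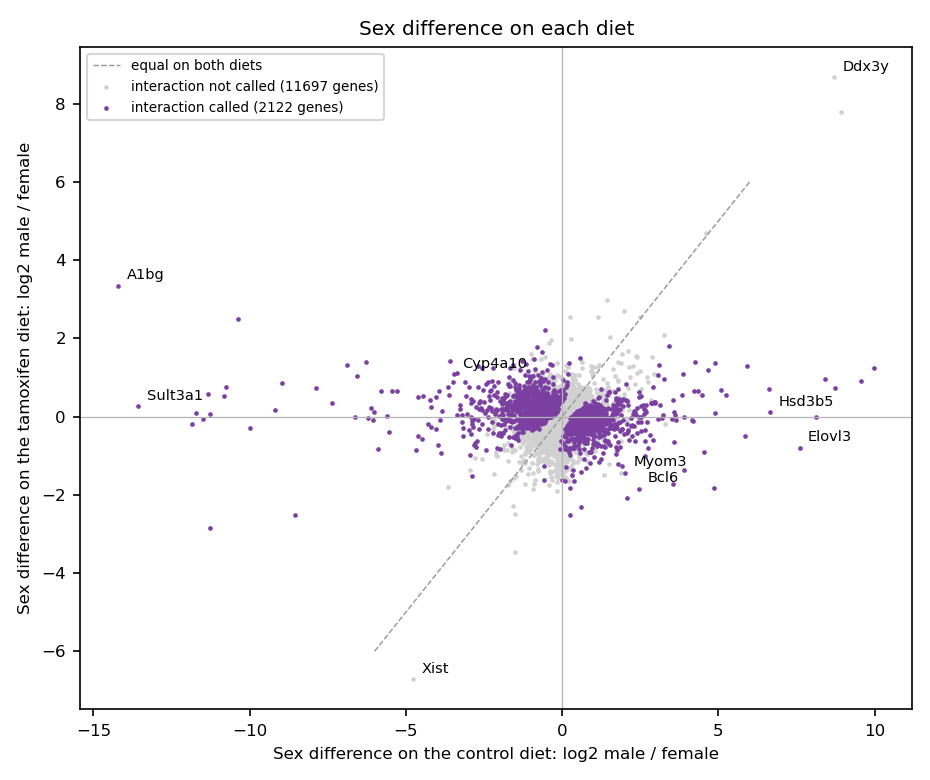
Male minus female difference (log2) on the tamoxifen diet against that on the control diet, 1 point per gene; purple points are the 2122 genes that passed for the difference in response and grey points the other genes tested. The purple points lie near 0 on the vertical axis across the width of the horizontal one, with Elovl3 at 7.60 and -0.79. The points of Ddx3y, a Y-linked gene, and Xist, expressed from the inactive X chromosome, rest on groups below background: Ddx3y was at least 111-fold and at least 122-fold higher in males on the control and tamoxifen diets, and Xist at least 31.1-fold higher in females on tamoxifen.

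The arrays were read for quality and labels before these results. The 75th percentile of the signal ran from 248 to 408 units over the 16 arrays, and the male control arrays lay at its low end, 248 to 292; the part of this in the results was not tested beyond the change of scaling given above. Between 48.5 and 55.8% of an array's probes stood well above background. The Y-linked genes Ddx3y, Uty and Eif2s3y were above background in all 8 males, with Ddx3y at 2.60 to 4.32. Ddx3y and Uty were below background in all 8 females, while Eif2s3y was above it in treated females 1 and 2 (0.0319 and 0.0337), against 5.80 to 6.99 in males. Xist was at 0.685 to 1.48 in the 8 females and below background in the treated males, but it was above background in male control 1 (0.197) and male control 3 (0.23). A1bg was below background on those 2 arrays too. Sult3a1 was above background on male control 1 alone among male controls (0.0818). Leaving out male control 1 or 3 was among the up to 29 settings, both slides in each, under which 95 named genes kept their calls.

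Each slide held 2 mice of each group, so the difference could be read within each slide. On slide 1 alone 273 genes passed, of which 271 had the same sign on slide 2 (99.3%). On slide 2 alone 257 passed, of which 256 had the same sign on slide 1 (99.6%). These are 2 readings on different mice. Of the 2122 genes, 516 had other probes in use, which all had the same sign as the main probe for 466, and a probe passed in the opposite direction for 5.

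**Figure D3:**
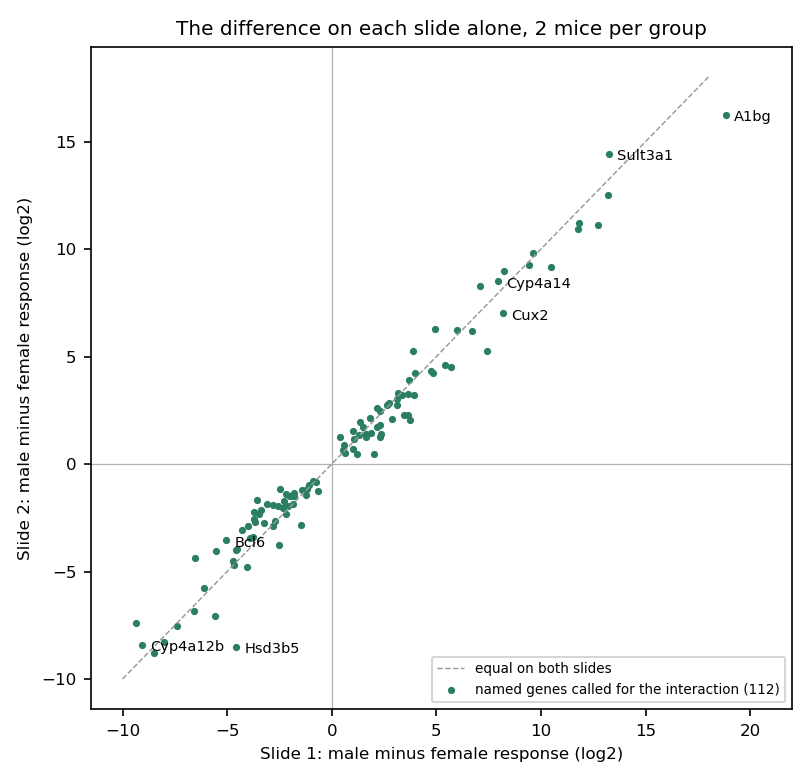
Male minus female response (log2) on slide 2 against slide 1, each from 2 mice per group, for the 112 named genes that passed for the difference on all 16 arrays; the dashed line marks equal values. Most of these genes were chosen for the same sign on both slides, so their agreement in sign is a description. Hsd3b5 lies off the line, at -4.58 on slide 1 and -8.49 on slide 2.

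Female-biased genes, from a list of genes higher in female liver that was chosen with earlier results of these data known, had the largest differences. Of 41 members 37 passed the filter on dim probes and were tested, 20 of them above background on all 16 arrays, and 9 were below background throughout 1 or more groups. Of the 37, 34 had a higher male response and 1 a lower, and the median difference was 6.13 (6.0 on slide 1, 5.26 on slide 2, 2.94 with normexp background correction, 2.96 over members above background on all arrays and 4.97 with low signals raised to the lowest signal above background). In males 35 of the 37 rose and 0 fell (of all genes tested 32.7% passed in males, 16% higher and 16.7% lower), with a median of 3.88. In females 2 rose and 19 fell (of all genes 21.8% passed, 9.67% higher and 12.1% lower), with a median of -0.79. The sex difference passed for 36 of the 37 on the control diet and for 3 on the tamoxifen diet. Of all genes tested, 32.7% passed on the control diet and 1.72% on the tamoxifen diet. In bulk tissue a lower level in each cell and fewer cells of a type cannot be told apart, which holds for every gene below.

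A1bg, of the immunoglobulin superfamily, had the largest fitted difference, but part of it rests on signals below background. Its level was 153, 313, 194 and 127 in control females and 0.0337, 0.041, 0.0524 and 0.104 in treated females. Male controls were below background on all 4 arrays, and treated males were at 1.46, 0.367, 0.196 and 0.766. Treated males were at least 13.6-fold above control males (adjusted p = 1.2e-06), and the female response was -11.79 ± 0.51 (adjusted p = 1.4e-09). The difference was 17.55 ± 0.72 as fitted and 15.56 with low signals raised to the lowest signal above background of their array. The A1bg promoter shown above holds a single TTCNNNGAA match.

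The sulfotransferases Sult3a1 and Sult3a2, which add sulfate to amines and steroids, went up in males to the range of treated females. Sult3a1 was at 185, 230, 222 and 186 in control females and at 83.9, 145, 120 and 141 in treated females, whose groups did not overlap, although the female response did not pass (-0.77 ± 0.52, adjusted p = 0.31). It was at 0.0818 in male control 1, below background in the other 3 male controls, and at 172, 142, 110 and 161 in treated males, inside or just above the range of treated females and below that of control females. The difference was 13.83 ± 0.73 (adjusted p = 1.1e-08). Sult3a2 was below background in all 4 male controls and at least 321-fold higher in treated males (adjusted p = 7.1e-12), while it fell by 1.44 ± 0.30 in females.

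Transporters and further enzymes of this group behaved alike in males. Slc22a26, an organic anion transporter, was at least 229-fold higher in treated than control males, and fell by 2.16 ± 0.31 in females. Slc22a27, of the same family, was at least 299-fold higher in treated males, with no passing female response (0.44 ± 0.37). Abcd2, a peroxisomal transporter of fatty acids, was at least 11-fold higher in treated males and fell by 0.51 ± 0.16 in females. Acot3, a peroxisomal acyl-CoA thioesterase, rose by 7.31 ± 0.27 in males and fell by 2.51 ± 0.27 in females, a difference of 9.82 ± 0.38 (adjusted p = 3.5e-10).

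In the stem cell surface protein Prom1 most of the difference lay in females. Its level was 13.6, 20.4, 20.4 and 13.5 in control females and 0.318, 0.279, 0.388 and 0.696 in treated females, while males were at 0.195 to 0.312 on the control diet and 0.259 to 0.74 on tamoxifen. The male groups overlapped, with a response of 0.93 ± 0.34 (adjusted p = 0.047), and the female response was -5.40 ± 0.34. Exceptions in the list, named after their values were seen, were Fitm1, Hamp2 and Ntrk2. Fitm1, a lipid droplet protein, was higher in control males than control females here (2.53), and its difference was -2.0 ± 0.58 (adjusted p = 0.033). Hamp2, a hepcidin gene, gave 1.84 ± 0.79 and the neurotrophin receptor gene Ntrk2 -0.82 ± 0.63, and neither passed.

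**Figure D4:**
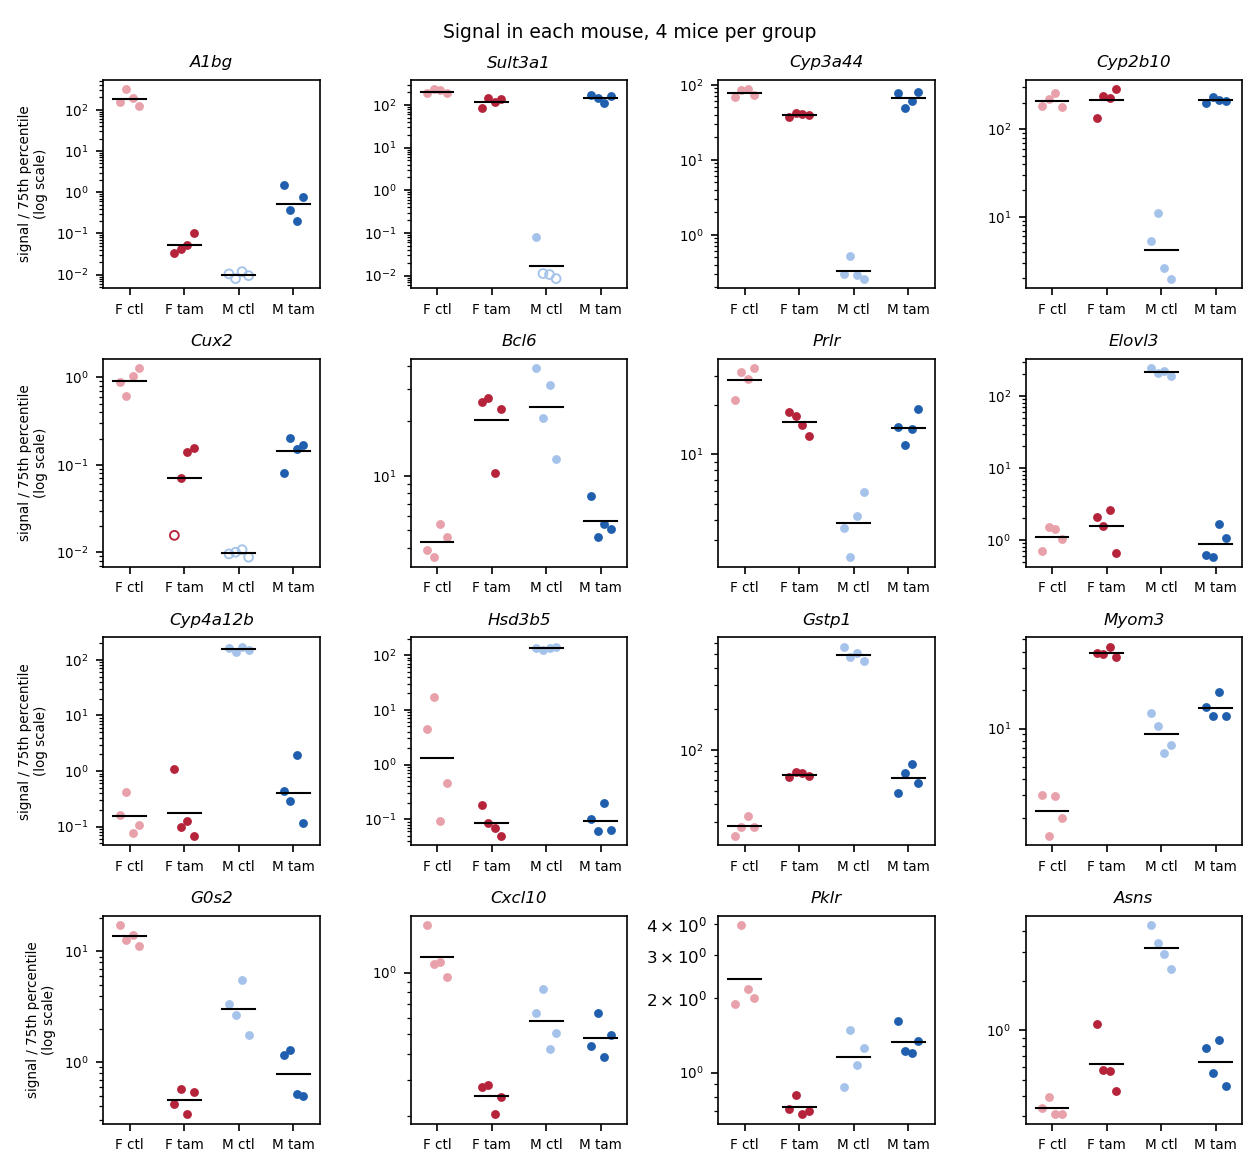
Level (signal divided by the 75th percentile of the array, log axis) of 16 genes in each of the 16 mice, 4 per group (F female, M male, ctl control diet, tam tamoxifen diet); filled points were above background, open points were not, and bars mark the mean of the log2 values. A1bg falls in females and rises in males, Bcl6 does the reverse, and Elovl3, Cyp4a12b and Hsd3b5 are high in control males.

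Male-biased genes formed the opposite group. Of 44 members 39 were tested, and 31 of those had a lower male response and 0 a higher (79.5%, where 7.46% of all genes were lower), with a median difference of -2.84 (-3.32 on slide 1 and -2.80 on slide 2). In males 38 of 39 fell and 1 rose, where 16.7% of all genes fell and 16% rose, with a median of -2.55. In females 6 rose and 8 fell, where 9.67% of all genes rose and 12.1% fell, with a median of 0.01. The sex difference passed for 36 of 39 on the control diet and for 3 on the tamoxifen diet. The shares over all genes tested were 32.7% and 1.72%. Capn8, Dkk4, Kcnk1 and Nuggc were put on this list with earlier results of these mice known, so those 4 are no independent evidence of its direction. All gene lists were chosen with such results known. The counts of this list and of the female-biased list therefore describe these data and are no independent evidence either. Lifr, the leukaemia inhibitory factor receptor, is the member that rose in males, and it was picked out after its value was seen (1.5, difference 1.05 ± 0.39, adjusted p = 0.079).

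Elovl3, a fatty acid elongase, was at 244, 211, 221 and 192 in control males. It was at 0.628, 0.576, 1.66 and 1.05 in treated males, at 0.712, 1.49, 1.41 and 1.03 in control females and at 2.10, 1.56, 2.63 and 0.661 in treated females. Treated males thus overlapped both female groups, and control males stood apart from all other mice. The male response was -7.92 ± 0.40 and the female response 0.47 ± 0.40, a difference of -8.39 ± 0.57 (adjusted p = 1.8e-07).

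Cyp4a12b, a fatty acid hydroxylase, showed the same form. It was at 164, 138, 172 and 150 in control males and at 0.0685 to 1.93 in the other 12 mice, with a difference of -8.75 ± 1.22 (adjusted p = 0.00029). Its close paralog Cyp4a12a gave -8.65 ± 1.12, and since the probes may bind transcripts of both genes, these are not independent values. Hsd3b5, a 3-ketosteroid reductase of male liver, was at 136, 126, 135 and 142 in control males and at 0.0609 to 0.196 in treated males. Among control females it was spread widely, at 4.45, 17.1, 0.0922 and 0.458, and treated females were at 0.0499 to 0.184, overlapping them. The male response was -10.49 ± 1.14 and the female response -3.95 ± 1.14, and the difference of -6.54 ± 1.61 passed (adjusted p = 0.014).

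Some male-biased genes rose in females as they fell in males. Gstp1, a glutathione transferase, fell from 568, 477, 510 and 444 to 48.8, 68.4, 79.1 and 57 in males and rose from 23.6, 27.5, 32.9 and 27.4 to 63, 69.6, 67.6 and 64.5 in females. The 2 treated groups overlapped, and neither overlapped a control group. The difference was -4.26 ± 0.20 (adjusted p = 2.3e-09), and a second probe gave -4.64. Its neighbour in sequence, Gstp2, gave -2.0 ± 0.16 with its main probe and -4.37 with a second, and the 2 genes may share signal.

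Nat8, an acetyltransferase, was at 33 to 43 in control males, 3.66 to 6.39 in treated males, 0.851 to 1.14 in control females and 1.90 to 6.41 in treated females. Its difference was -4.70 ± 0.40. C6, a component of the complement attack complex, fell by 4.43 ± 0.57 in males with no passing female response (0.17 ± 0.57). Susd4, a complement regulator, fell by 5.79 ± 0.35 in males, and Cspg5, a chondroitin sulfate proteoglycan, by 4.26 ± 0.30. Members below background in treated males have bounds. Capn8, a calpain protease, was at least 98.8-fold lower in treated than control males, Kcnk1, a potassium channel, at least 40.8-fold, and Tmc7, a transmembrane channel-like protein, at least 11.7-fold.

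The 27 genes of growth hormone signalling did not move as a block. The difference passed for 2 in the higher direction and 3 in the lower (18.5%, near the 15.4% of all genes), with a median of -0.12. Its receptor Ghr gave -0.16 (95% interval -0.51 to 0.18), Stat5b -0.12 (-0.52 to 0.28) and the target Igf1 0.22 (-0.11 to 0.55), and none passed. The members that passed include the repressors of sex-biased genes. Igfals, which carries insulin-like growth factors in plasma, fell by 1.32 ± 0.16 in females and gave 0.15 ± 0.16 in males. Socs3, an inhibitor of cytokine signalling, fell by 1.70 ± 0.28 in males and gave 0.10 ± 0.28 in females. The remaining member that passed, the serine protease inhibitor gene Serpina3k (-0.50), was picked out after its value was seen.

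Bcl6, higher in control males, exchanged its levels between the sexes. It was at 3.91, 3.56, 5.45 and 4.59 in control females and at 25.4, 26.8, 10.3 and 23.4 in treated females. In males it was at 39.2, 20.7, 31.7 and 12.4 on the control diet and at 7.78, 4.62, 5.41 and 5.10 on tamoxifen. Treated females overlapped control males, and treated males overlapped control females. The responses were 2.22 ± 0.35 in females and -2.08 ± 0.35 in males, with a difference of -4.31 ± 0.49 (adjusted p = 4.5e-05). The Bcl6 promoter shown above held 3 matches to the STAT5-type palindrome, and its other listed promoter held 1.

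Cux2, higher in control females, moved in the opposite sense to Bcl6. It was at 0.891, 0.606, 1.04 and 1.28 in control females, and at 0.0699, 0.142 and 0.155 in 3 treated females and below background in the other. It was below background in all 4 male controls and at 0.0813, 0.204, 0.151 and 0.17 in treated males, at least 3.67-fold higher (adjusted p = 0.00012). Treated females and treated males overlapped. The difference was 7.60 ± 0.78 as fitted, 5.41 with low signals raised to the lowest signal above background, and 2.60 at the lowest of 28 settings.

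Among 23 genes of oestrogen, androgen and prolactin signalling, 5 had a higher and 1 a lower male response (26.1%, against 15.4% of all genes), with a median of 0.09. Prlr, the prolactin receptor, was at 21.2, 31.5, 28.7 and 33.3 in control females and at 17.9, 17.1, 15 and 12.9 in treated females. It was at 3.53, 2.36, 4.21 and 5.91 in control males and at 14.7, 11.4, 14.1 and 18.7 in treated males. The treated groups of both sexes overlapped, between the levels of their controls. The difference was 2.79 ± 0.34 (adjusted p = 7.1e-05), and a second probe gave 4.31.

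Esr1, oestrogen receptor alpha, gave a smaller value, 0.84 ± 0.23 (adjusted p = 0.027), with a response of -0.63 ± 0.17 in females and 0.21 ± 0.17 in males. Its call was lost without female control 2 or 4, female tamoxifen 4, male control 3 or male tamoxifen 4 (adjusted p up to 0.053). Other Esr1 probes gave 0.99 (adjusted p = 0.41) and 1.31 (adjusted p = 0.013). Ccnd1, the cell cycle gene for cyclin D1 that oestrogen can induce, rose by 2.20 ± 0.37 in males and gave -0.17 ± 0.37 in females, a difference of 2.37 ± 0.52 (adjusted p = 0.0069). Tff3, a trefoil peptide, was below background in control females and at least 7.54-fold higher in treated females (adjusted p = 1.6e-05), and males gave -0.43 ± 0.43.

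Drug-metabolising families held differences in both directions. The share of a list that passed for the difference is read, here and below, against the 15.4% of all genes. Of 79 cytochromes P450 of families Cyp1 to Cyp4, 64 were tested, and of these 24 had a higher and 11 a lower male response (54.7%), and the median was 0.16. Cyp2b13, Cyp3a44 and Cyp4a14 were among the largest in the higher direction, and the Cyp4a genes Cyp4a12a and Cyp4a12b, given above, the largest in the lower. Cyp2b10, a target of the xenobiotic receptor CAR, was at 181, 217, 257 and 179 in control females and at 135, 237, 224 and 282 in treated females. It was at 5.34, 11, 2.64 and 1.99 in control males and at 200, 230, 212 and 210 in treated males. Treated males thus lay within the range of both female groups, which overlapped each other. The response was 5.67 ± 0.40 in males and 0.04 ± 0.40 in females (difference 5.62 ± 0.56, adjusted p = 1.3e-05).

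Cyp2b9 gave 7.70 ± 0.64, and Cyp2b13 was at least 417-fold higher in treated than control males with a female response of -0.83 ± 0.30 that did not pass. Probes of the Cyp2b genes can share transcripts, so these are not separate evidence. Cyp3a44 was at 0.26 to 0.518 in control males and at 48.9 to 79.8 in treated males, above treated females (36.7 to 42.4) and overlapping control females (69.4 to 86.5). Its difference was 8.61 ± 0.27 (adjusted p = 6.4e-11). Cyp3a11, the main PXR target of this family, gave 1.32 ± 0.36 (adjusted p = 0.026), which missed the threshold when female control 2 or male tamoxifen 2 was left out (adjusted p up to 0.0503) and with the mean of its probes (0.11). Cyp2c67 and Cyp2c68, close paralogs, fell in females (-2.86 ± 0.33 and -3.07 ± 0.32) into the range of the male groups, where no response passed. Over the 33 CAR and PXR targets, 12 had a higher and 1 a lower male response (39.4%), with a median of 0.34. Of these targets 16 rose in males and 2 in females, where 16% and 9.67% of all genes rose.

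Conjugating enzymes divided by family. Of 21 sulfotransferases 16 were tested, and 10 had a higher male response and 0 a lower (62.5%), with a median of 1.99 that ranged from 0.33 to 2.29 over the settings. Of the 10, 7 are Sult2a and Sult3a genes with close copies, whose probes may share signal. Sult2a3 was below background in all male controls and at least 207-fold higher in treated males, with a female response of 0.08 ± 0.41. Of 21 UDP-glucuronosyltransferases 14 were tested, and 1 had a higher and 6 a lower male response (50%), with a median of -0.41. Ugt2b35 fell by 1.58 ± 0.13 in males and gave 0.07 ± 0.13 in females, and Ugt2b1 fell in both sexes, by 1.93 ± 0.14 in males and 0.59 ± 0.14 in females. Of 22 major urinary proteins 10 were tested, and only Mup21 passed (-2.78 ± 0.61), while 9 fell in males and 7 fell in females. Of all genes tested, 16.7% fell in males and 12.1% in females. Probes of the Mup genes may share signal, which was not examined, so their falls are not separate evidence.

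Of 38 ABC transporters, 6 were higher and 4 lower (26.3%), and Abcb1a, a multidrug exporter, rose by 4.89 ± 0.28 in males, with a female response of 0.78 ± 0.28 that did not pass (difference 4.11 ± 0.40, adjusted p = 9.2e-06). Of 22 targets of the stress factor NRF2, 1 was higher and 3 lower (18.2%, near the 15.4% of all genes). Ephx1, which hydrolyses epoxides, fell by 1.91 ± 0.20 in males and gave 0.34 ± 0.20 in females. Of 9 AhR targets Nqo1, a quinone reductase, passed at 0.60 ± 0.17 and lost its call under 9 of 29 settings, and Cyp1a2 did not (-0.72, 95% interval -1.47 to 0.04).

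**Figure D5:**
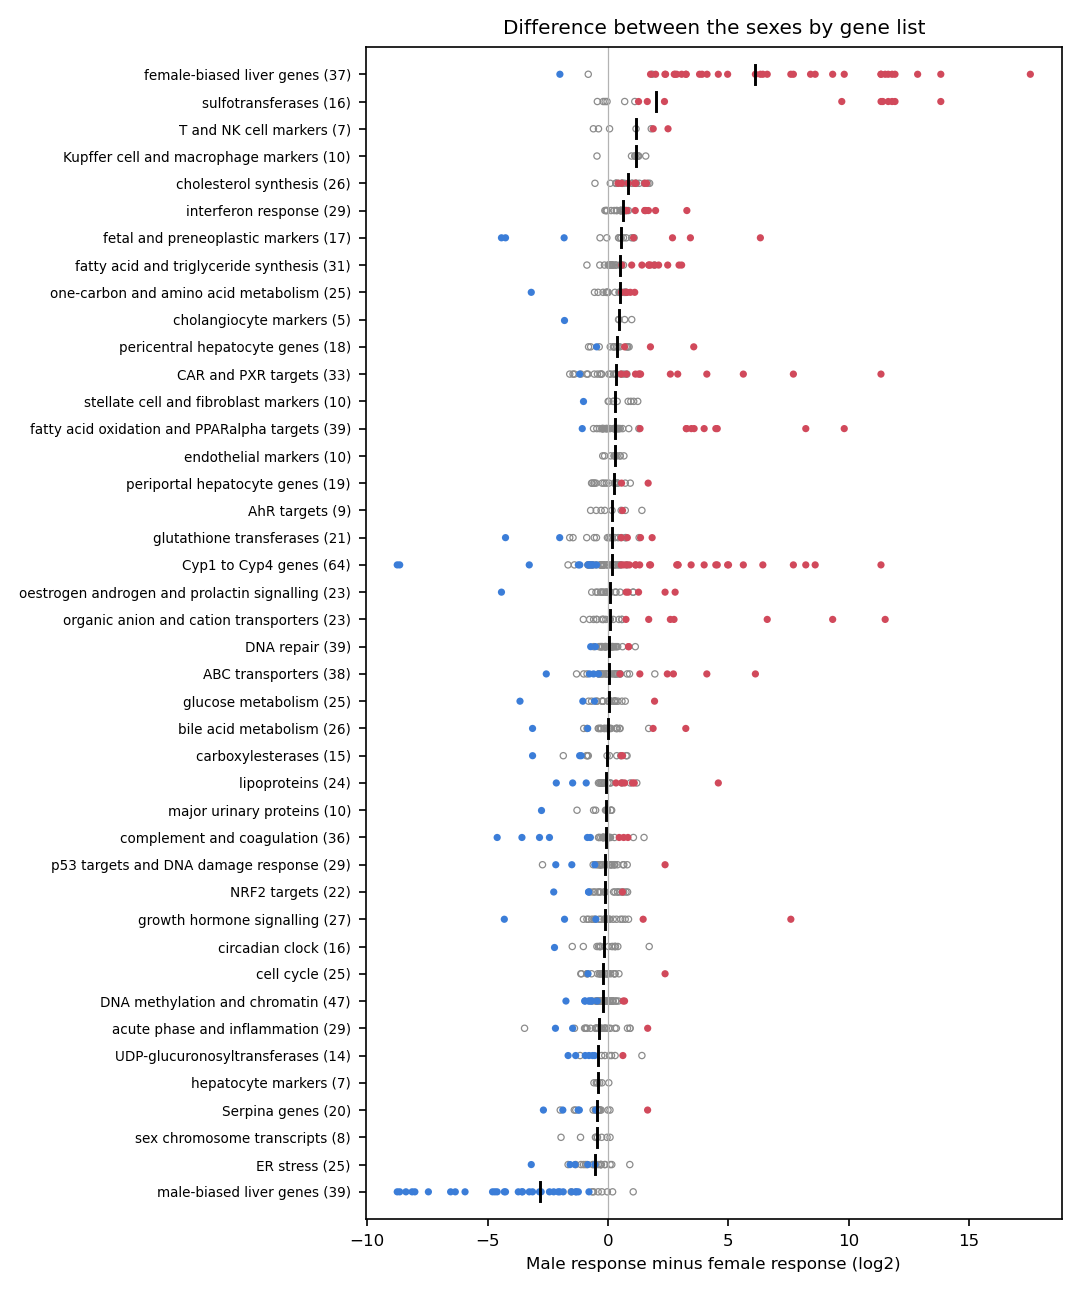
Male minus female response (log2) of each gene tested in the lists with at least 5 genes tested, with the number tested in brackets; red points passed with a higher and blue points with a lower male response, open points did not pass, and the bar is the list median. Female-biased genes have the highest median (6.13) and male-biased genes the lowest (-2.84), and most other lists have medians near 0 with a few genes far out.

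In fatty acid oxidation, PPARalpha targets included, 39 genes were tested and 10 were higher and 1 lower (28.2%), with a median of 0.31. Of the 39, 22 rose in males and 8 in females, where 16% and 9.67% of all genes rose. The 10 with a higher male response are led by acyl-CoA thioesterases and Cyp4a genes, several of them close paralogs. Cyp4a14, an omega-hydroxylase, was at 0.177, 0.271, 0.212 and 0.257 in control males and at 33.9, 95.5, 29.7 and 85.1 in treated males. Control females (16.6, 8.79, 117 and 31) and treated females (4.67, 35.1, 13.6 and 93.5) were spread over a wide common range that includes treated males. The difference was 8.22 ± 1.19 (adjusted p = 0.00039). Cyp4a10 rose by 4.19 ± 0.26 in males and gave -0.35 ± 0.26 in females.

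Among 31 genes that build fatty acids and triglycerides, 11 were higher and 0 lower (35.5%), with a median of 0.49. In males 11 rose and 3 fell, where 16% of all genes rose and 16.7% fell. In females 2 rose and 11 fell, where 9.67% of all genes rose and 12.1% fell. G0s2, an inhibitor of the lipase ATGL, fell in both sexes: from 17.2, 12.8, 14.2 and 11.3 to 0.418, 0.577, 0.339 and 0.541 in females and from 3.34, 2.65, 5.56 and 1.75 to 1.16, 1.29, 0.521 and 0.497 in males. The treated groups overlapped, and the fall was larger in females (-4.90 ± 0.36 against -1.95 ± 0.36, difference 2.95 ± 0.51, adjusted p = 0.0014). Cd36, a fatty acid transporter, rose by 3.29 ± 0.28 in males to the range of both female groups, with a female response of 0.23 ± 0.28.

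Of 26 cholesterol synthesis genes, 7 were higher and 0 lower (26.9%), with a median of 0.84. In males 0 rose and 6 fell, where 16% of all genes rose and 16.7% fell. In females 0 rose and 19 fell, where 9.67% of all genes rose and 12.1% fell. Fdft1, squalene synthase, was at 10.1, 23, 12.1 and 9.96 in control females and at 2.66, 3.42, 2.15 and 2.20 in treated females, with males going from 7.39 to 8.85 down to 3.61 to 5.14. It fell by 2.34 ± 0.23 in females and 0.81 ± 0.23 in males (difference 1.53 ± 0.33, adjusted p = 0.0060). Among bile acid genes 2 of 26 were higher and 2 lower (15.4%, that of all genes), with a median of -0.0043. The oxysterol hydroxylase Cyp39a1 gave 3.23 ± 0.52 and Cyp7b1, another such hydroxylase, -3.13 ± 0.74. Cyp7a1, which starts the classical route of bile acid synthesis, did not pass (0.39, 95% interval -1.39 to 2.16).

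In glucose metabolism 1 of 25 genes was higher and 3 lower (16%, near the 15.4% of all genes). Pklr was at 1.90, 3.94, 2.18 and 2 in control females and at 0.71, 0.809, 0.677 and 0.7 in treated females, and male groups lay between them at 0.877 to 1.61. It fell by 1.73 ± 0.21 in females and gave 0.21 ± 0.21 in males. Pfkfb3, which makes the activator of phosphofructokinase, rose by 2.03 ± 0.45 in females and fell by 1.62 ± 0.45 in males. Of 24 lipoprotein genes 6 were higher and 3 lower (37.5%), with a median of -0.07, among them the lipoprotein receptor Vldlr (4.59 ± 0.76), which was below background on 2 male control arrays.

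Of 29 interferon response genes, 10 were higher and 0 lower (34.5%), with a median of 0.64. In males 9 rose and 6 fell, where 16% of all genes rose and 16.7% fell. In females 1 rose and 16 fell, where 9.67% of all genes rose and 12.1% fell. The chemokine Cxcl9 rose by 1.94 ± 0.33 in males and fell by 1.34 ± 0.33 in females. Cxcl10 was at 1.70, 1.10, 1.13 and 0.949 in control females and at 0.276, 0.284, 0.203 and 0.246 in treated females, a fall of 2.25 ± 0.22. Its male groups overlapped (0.422 to 0.827 and 0.389 to 0.633), with a response of -0.27 ± 0.22. Macrophage markers moved in the same samples, as given below, and their part in this list was not tested.

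Of 25 ER stress genes 0 were higher and 5 lower (20%), with a median of -0.54. Asns, asparagine synthetase, was at 4.33, 3.40, 2.90 and 2.35 in control males and at 0.778, 0.549, 0.876 and 0.46 in treated males. It was at 0.339, 0.394, 0.308 and 0.311 in control females and rose to 1.09, 0.574, 0.563 and 0.429 in treated females, which overlapped treated males. The difference was -3.19 ± 0.38 (adjusted p = 6.9e-05). Of 36 complement and coagulation genes 3 were higher and 6 lower (25%), led by C6 and by C9 (-3.57 ± 0.67), another component of the attack complex. Of 29 acute phase genes 1 was higher and 2 lower (10.3%): Apcs, serum amyloid P, fell in females by 1.59 ± 0.21, and Il1r1, the interleukin 1 receptor, fell in males by 1.70 ± 0.33.

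Genes tied to DNA damage and chromatin bear on the genotoxic and epigenetic effects that the series title names, and their shares are read against the 15.4% of all genes. Of 29 p53 targets 1 was higher and 3 lower (13.8%), of 39 DNA repair genes 2 and 2 (10.3%), of 47 DNA methylation and chromatin genes 2 and 8 (21.3%), and of 25 cell cycle genes 1 and 1 (8%). Cdkn1a, the cell cycle inhibitor p21, was at 0.849, 1.08, 2.60 and 0.498 in control females and at 3.40, 3.58, 4.38 and 3.26 in treated females, and rose by 1.80 ± 0.39. The male groups overlapped (1.83 to 3.77 and 1.54 to 3.31), with a response of -0.37 ± 0.39, and the difference passed (-2.17 ± 0.55, adjusted p = 0.017). Mbd1, a protein that binds methylated DNA, fell by 1.41 ± 0.17 in males and gave 0.34 ± 0.17 in females (difference -1.74 ± 0.24). Dnmt1, the maintenance methyltransferase, did not pass (-0.15, 95% interval -0.44 to 0.14). Mgmt, which removes alkyl groups from guanine, gave 0.86 ± 0.25 (adjusted p = 0.035) and lost its call under 9 of 29 settings.

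Rad51b, a recombination repair gene, is not a member of the DNA repair list counted above. It rose in both sexes, by 3.81 ± 0.37 in males and 1.12 ± 0.37 in females. Smtnl2, a smoothelin-like protein, also rose more in males (4.93 ± 0.20) than in females (2.53 ± 0.20), as did the keratin gene Krt23 (5.6 ± 0.39 and 3.52 ± 0.39). Each of these passed for the difference.

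A smaller set of genes responded mainly in females. Myom3 was at 3, 1.44, 2.95 and 1.98 in control females and at 39.3, 38.6, 43.8 and 36.2 in treated females. Control males (13.2, 10.4, 6.43 and 7.40) and treated males (14.8, 12.5, 19.5 and 12.6) overlapped. The response was 4.14 ± 0.25 in females and 0.70 ± 0.25 in males, a difference of -3.44 ± 0.35 (adjusted p = 1.6e-05), so treated females ended above every male. The growth factor Bmp7 rose by 4.02 ± 0.20 in females and 2.00 ± 0.20 in males, and the interleukin 12 receptor chain Il12rb1 by 3.27 ± 0.27 and 1.54 ± 0.27.

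Fam171b, a membrane protein, rose by 2.76 ± 0.34 in females and gave -0.24 ± 0.34 in males. Treh, which splits trehalose, rose by 3.03 ± 0.42 in females and gave 0.05 ± 0.42 in males. Csad was at 3.01, 1.91, 1.56 and 2.50 in control females and at 12.3, 15.1, 15.4 and 5.68 in treated females, above all males (2 to 4.84). Its response was 2.38 ± 0.30 in females and -0.53 ± 0.30 in males. Rcan2, a calcineurin inhibitor, fell by 2.69 ± 0.46 in females and gave 1.13 ± 0.46 in males, which did not pass (adjusted p = 0.075).

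Large responses that did not pass for the difference mark its limits. Gdf15, a stress cytokine, rose by 4.49 ± 0.43 in females and 4.01 ± 0.43 in males, with a difference of -0.48 (95% interval -1.78 to 0.83). Arrdc2, an arrestin-domain protein, rose by 4.56 ± 0.19 and 4.21 ± 0.19 (-0.35, interval -0.92 to 0.22). Cyp2f2, a cytochrome P450 of periportal hepatocytes and lung, fell by 3.35 ± 0.20 and 4.01 ± 0.20 (-0.66, interval -1.26 to -0.06, adjusted p = 0.12). These intervals do not show that the responses were equal.

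Markers of the cell types a liver sample can hold were read on the same arrays. None of 7 hepatocyte markers passed for the difference, and their summed level was 3900 to 4610 in control females, 3530 to 5390 in treated females, 4690 to 5670 in control males and 3290 to 4450 in treated males. In males 5 of the 7 fell and 0 rose, where 16.7% of all genes fell and 16% rose. In females 1 rose and 1 fell, where 9.67% of all genes rose and 12.1% fell. None of 10 Kupffer cell and macrophage markers tested of 11 passed, with a median difference of 1.17. All 10 rose in males, with Timd4 at 2.32, and 1 rose in females (Marco, 2.21). Their summed level was 32.9 to 47.9 in control males and 112 to 171 in treated males, against 35.4 to 145 in control females and 79.3 to 149 in treated females, so the male groups did not overlap and the female groups did. Of all genes tested, 16% rose in males and 9.67% in females. Of 10 endothelial markers 8 rose in males and 5 in females, and none passed for the difference. Their sum was lowest in control males, at 42.9 to 52.4 against 56.5 to 98.3 in the other 12 mice. Of 10 stellate cell markers Rgs5 passed for the difference (-1.03 ± 0.23), of 5 cholangiocyte markers Sox9 (-1.82 ± 0.36) and of 4 erythroid markers Alas2 (-1.32 ± 0.30). Of 7 T and NK cell markers Gzmb (2.50 ± 0.51) and Cd3g (1.88 ± 0.60) passed. Gzmb was below background in all male controls and lost its call with normexp background correction, and Cd3g lost its call under 16 of 28 settings, 10 of them without 1 mouse. In males 4 of the 7 rose and 2 fell, Cd4 (-1.31) and Cd3e (-0.64), and the list median was 2.04 on slide 1 and 0.095 on slide 2. The summed T and NK cell level was 42.7 to 54.3 in control males, 23.4 to 25.7 in treated males, 27.9 to 45.5 in control females and 20.7 to 32 in treated females. None of 2 neutrophil markers and 1 B cell marker passed. Their part in the differences above was not tested.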

How the data were processed

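Liver RNA of 16 WSB/EiJ mice was labelled with Cy3, and each array held a single mouse. The deposited scanner files hold spot intensities made with Agilent Feature Extraction 10.7, per the submitters' processing notes; the intensity used here is the processed signal, as named in the file headers. The authors' deposited table holds, per its values, the same signals multiplied by an array factor of 2.81 to 4.67 and was used as an alternative. The number of arrays limits the precision.

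Each signal was divided by the 75th percentile of its array, control spots not counted, and the log2 values of a probe's spots were averaged with outlier spots left out (18 values of kept probes stayed missing and were left to the fit). Of 55681 probes, 26762 were named through their unversioned accession in a RefSeq gene list. Kept were 28387 that stood well above background in every mouse of 1 or more groups, 17824 of them named. The kept probe with the highest mean stood for its gene, which left 13819 genes. A group-means model was fitted with limma 3.58.1 in R 4.3.3 (files read with the data.table package, version 1.17.8), with 12 residual degrees of freedom, p-values were adjusted by Benjamini-Hochberg over all genes and the threshold was 0.05. "Passed" means past that threshold, and values after ± are standard errors. The 4 mice of a group are labelled as replicates and taken as separate animals.

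A gene whose signal missed background on all 4 arrays of a group has its fold given as a bound. It sets the brighter group's mean against the lowest signal well above background on each array of the other group, or the gene's own signal if that is higher.

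The members and gene lists were chosen with earlier results of these data known. Named genes passed with the same sign on both slides and were the largest in each class of response, the largest of those below background, and the first 2 or 4 of each list. A fixed set was named whether it passed or not, with the sex-chromosome genes and the 3 largest shared rises and falls; exceptions are marked in the text. A few named genes were left out of the text and are not reported here. Promoters are those of RefSeq. Replicate numbers mark no pairing in the labels: same-numbered mice deviated together with correlations of -0.188 to 0.284 (median 0.064). Alternatives covered scaling, background correction (normexp, offset 50, on the median signal), probe filters, outlier spots, choice of probe, variance model, slide and replicate blocks, each slide alone and each mouse left out.

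On simulated data with 13801 genes, changes of 0.5, 1 and 2 on the log2 scale were given to 66, 67 and 67 genes. The test of the difference recovered 10.6%, 46.3% and 88.1% of them, with 3 false calls. Noise was drawn independently for each gene, and in the real data a larger share of genes passed (15.4%). These rates therefore hold for the simulated setting and may differ in the real data. Probes with no gene symbol were left out of the gene counts.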

Additional observations from a re-analysis of the deposited data

Results flagged for a closer look

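The response to tamoxifen differed between the sexes, by the test of the difference itself, for 2122 genes, which are the subject of the report.

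In 21 of 473 gene and group combinations examined among the named genes, 1 of the 4 mice lay far from the other 3. Chance gives about 1 in 20 such flags, and 21 is close to that rate. The values are levels, as signal divided by the array's 75th percentile.

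Among control females, Cyp2g1 was low in mouse 1 (6.35, others 10.5 to 11.2), Susd4 was high in mouse 2 (0.342, others 0.169 to 0.186), and Smtnl2 was high in mouse 4 (0.643, others 0.381 to 0.388). Serpina5, a protease inhibitor, was low in mouse 3 (0.05, others 0.113 to 0.132), and Cd36 was high in the same mouse (8.36, others 4.27 to 4.76). Esr1 was low in mouse 1 (0.925, others 1.4 to 1.44) and Cyp7a1 was high in mouse 4 (7.89, others 2.98 to 3.17).

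Among treated females, Bcl6 was low in mouse 3 (10.3, others 23.4 to 26.8), and Rgs5 was high in that mouse (5.91, others 5.03 to 5.12). Cpsf4l was low in mouse 1 (1.71, others 2.76 to 2.85), and Ctsc, the protease cathepsin C, was low in mouse 4 (8.72, with the highest of the others at 11.1).

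Among control males, mouse 3 was low for Pfkfb3 (2.78, others 6.94 to 7.11) and high for Gdf15 (13, others 3.11 to 3.84). Cyp4a10 was high in mouse 4 (9.12, others 8.26 to 8.38), and Dkk4, an inhibitor of Wnt signalling, was high in mouse 1 (7.92, others 2.46 to 2.71).

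Among treated males, mouse 2 was low for Enho (6.27, others 13.2 to 15.3) and Ghr (64.6, others 88 to 91.3), and high for Ephx1 (80.5, others 53.3 to 56.5) and Setd7, a histone methyltransferase (1.15, others 0.736 to 0.788). Cyp2g1 was low in mouse 3 (1.84, others 3.22 to 3.42), and Gdf15 was low in mouse 4 (40.6, others 91.7 to 108).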

How the results depend on the processing

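Counts of genes that passed are given in the order difference between the sexes, male response, female response, sex difference on the control diet and sex difference on the tamoxifen diet. They were 2122, 4513, 3011, 4524 and 237. Array median scaling gave 1195, 2992, 1618, 2684 and 83. Slide 1 alone gave 273, 1291, 420, 821 and 7, and slide 2 alone gave 257, 1955, 1140, 1559 and 5, each with fewer mice. An adjusted p under 0.01 left 917, 2678, 1566, 2445 and 38, and asking for at least 2-fold as well left 873, 1280, 638, 935 and 74. Testing all kept probes, which are more features, gave 3184, 7814, 4651 and 7422 for the first 4. Normexp background correction gave 1237 for the difference and 2819 for males. The sex difference on the tamoxifen diet had 114 genes with no filter on dim probes and 659 with array weights. Except for the slides and the number of features, the cause was not tested.

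The split of genes with a higher and lower male response moved from 1091 and 1031 to 806 and 389 with median scaling. For males alone it moved from 2205 up and 2308 down to 2050 and 942 with median scaling and 2549 and 1649 with quantile normalization.

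Leaving out each mouse gave 1534 to 2249 for the difference, lowest without female tamoxifen 3, 3658 to 4659 for males, 2127 to 3205 for females, 3310 to 4817 for the control diet and 64 to 244 for the tamoxifen diet. With the replicate number as a block the counts were 2159, 4526, 3042, 4467 and 255, although the numbers are not a pairing, and with the slide as a block the difference had 2230. Of 112 named genes that passed, 95 passed under each of up to 29 settings and 17 missed the threshold under at least 1. None of the 112, that is 0, changed sign while past the threshold. These settings kept both slides and the main threshold. Each slide alone, the stricter adjusted p, the limit on fold size and the test of all kept probes were not among them. Of the 2122 genes, 105 were below background throughout 1 or more groups, so their fitted sizes depend on noise, and 63 of the 105 still passed with low signals raised to the lowest signal above background.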

Other observations

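The shares of other lists are read against the 15.4% of all genes that passed. Per1, a repressor of the circadian clock, was the only member of 16 clock genes to pass (6.25%): it was at 6.07, 6.30, 9.65 and 8.94 in control females and at 12.7, 21.7, 36.3 and 26.3 in treated females, a response of 1.58 ± 0.32, with -0.67 ± 0.32 in males and a difference of -2.25 ± 0.45 (adjusted p = 0.0041). Of 18 pericentral hepatocyte genes 3 were higher and 1 lower (22.2%), led by Nt5e, which makes adenosine outside the cell. Nt5e was at 1.5 to 2.84 in control males and at 21.6 to 26.9 in treated males, against 16.2 to 26.8 in all 8 females, a difference of 3.57 ± 0.26 (adjusted p = 3.8e-07). Of 19 periportal genes 2 were higher and 0 lower (10.5%), and Ctsc fell in females by 1.51 ± 0.20 with a male response of 0.16 ± 0.20.

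Of 25 genes of one-carbon and amino acid metabolism 5 were higher and 1 lower (24%). Cth, which makes cysteine from cystathionine, was at 166 to 208 in control females and fell by 0.93 ± 0.12 in treated females, and gave 0.18 ± 0.12 in males. The heat shock gene Hspa1a rose by 2.11 ± 0.41 in females and gave -0.74 ± 0.41 in males, where it was at 4.45 to 19.2 against 0.285 to 3.38 in females.

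Among 10563 kept probes with no gene symbol, 315 had a higher and 618 a lower male response (8.83%). Among the 17824 kept probes with a symbol, 2251 passed.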
